A study of Homo sapiens with 4 samples.

Results

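The epidermal differentiation complex and the S100A genes lie side by side on the long arm of human chromosome 1, and the stretch examined here runs over chr1:151900000-153700000 of GRCh37 (hg19), 1.8 Mb in length. Its members are the chromatin loops of chromosome 1 with an anchor, one of the 2 ends that a loop brings together, in this window, and the contact domains that overlap the window. Over the 4 libraries 122 of 77275 called loops and 14 of 7418 called domains were members. The S100A part, from chr1:153300000 on, is 0.4 Mb long and holds the genes from PGLYRP4 and S100A9 to NPR1. The rest, 1.4 Mb long, holds S100A10, S100A11 and the genes of the cornified envelope. Of 73 listed genes of these families and their neighbors, 64 were found in the window, which has 67 protein-coding genes. The window had been set to cover these families, so this count does not test the name of the region.

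Arima-HiC, a genome-wide assay of which stretches of DNA lie close together in the nucleus, was applied to MDA-MB-231, a triple negative breast cancer cell line with an unmodified (WT) genotype. Cells were treated for 48 h with DMSO (vehicle) or with 75 nM THZ1, a covalent inhibitor of the kinase CDK7. Each condition had 2 libraries, which the sample labels call technical replicates of this 1 line, so the p-values below measure only the spread between these libraries. Loops had been called per library by HiCCUPS and domains by Arrowhead, and a loop missing from a list had failed the caller's thresholds, which does not mean that it had no contacts. The lists hold no expression levels, so whether these cells express the genes was not examined.

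S100A genes encode small calcium-binding proteins with EF-hand motifs. S100A10 and S100A11 bind annexins at membranes, S100A8 and S100A9 together form calprotectin, which neutrophils carry in large amounts, S100A7 is psoriasin of inflamed skin, and S100A4 is known for its link to cell motility and metastasis. The epidermal differentiation complex encodes the building blocks of the cornified envelope of the outer skin: the S100 fused-type proteins (filaggrin FLG, FLG2, hornerin HRNR, repetin RPTN, trichohyalin TCHH, TCHHL1 and cornulin CRNN), the late cornified envelope (LCE) proteins, the small proline-rich (SPRR) proteins, involucrin (IVL) and loricrin (LORICRIN). Loop anchors are often bound by CTCF, a DNA-binding factor at which the ring-shaped cohesin complex halts, and the motifs at the ends of a CTCF loop usually point toward each other.

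The CTCF core motif, searched on both strands as a pattern of 14 positions, was found in 7 of the 34 anchors of 5 kb that member loops had in the window (20.6%). By comparison, 11.7% of the 29472 distinct 5 kb anchors of all loops and 2.54% of 566853 sequenced 5 kb bins held it. A match to the letters is a description and does not show that CTCF was bound. The 8 sites found are printed because the anchors they lie in belong to loops described below. The sites at S100A10 and S100A2 were named by the rule for sequences, while the other 6 were chosen after the values of their loops had been seen. Each is given 5′ to 3′ on the strand stated, with the core motif in capitals, and all 8 lie between protein-coding genes.

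Before the start of S100A10, minus strand, chr1:151966679-151966708: ttcctagaCCCGTAGGTGGCCGcagagccg
Between S100A11 and TCHHL1, plus strand, chr1:152025204-152025233: gtcagtcaCCACCAGGTGGCGCacaagcca
Between RPTN and HRNR, plus strand, chr1:152161233-152161262: ccgacgggCCAGCAGGGGGCGCacttgcag
Between RPTN and HRNR, plus strand, chr1:152162476-152162505: aagagttgCCAGCAGGTGGCCCcagagcac
Between CRNN and LCE5A, plus strand, chr1:152413475-152413504: ttcccatcCCGGCAGAGGGCCGagttaccc
Between CRNN and LCE5A, minus strand, chr1:152432925-152432954: gcacacaaCCAGCAGGTGGCGCccaccctt
Between S100A7 and S100A6, minus strand, chr1:153467547-153467576: aagattggCCAGCAGGGGGCGGagtagacc
Before the start of S100A2, minus strand, chr1:153541172-153541201: cgccttagCCACCAGAGGGCACgaagcagc

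These sites lie along the window in the order of the genes. Of the 48 distinct 5 kb loops among the members, 2 had a plus site at the first anchor and a minus site at the second, so that the motifs faced each other, 1 had sites on other strands at both anchors, 12 had a site at 1 anchor and 19 at neither. The remaining 14 had an anchor outside the window, which was not searched. The facing pairs joined the gap between RPTN and HRNR, or the gap beside S100A11, to the minus site between CRNN and LCE5A. The first was called at these bins in both THZ1 lists and the second in THZ1 2 alone, and neither in a vehicle list. By matching within 20 kb, both vehicle libraries held each of these loops at nearby bins.

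Fewer loops of the region were called with THZ1 than with vehicle, by the same factor as over the genome as a whole when loops of all anchor widths were counted. With vehicle the lists held 33 and 38 member loops, with THZ1 26 and 25, and the conditions did not overlap. These gave means of 35.5 ± 3.54 for vehicle and 25.5 ± 0.707 for THZ1 (SD, n = 2 each), which are 1.39-fold apart. The exact two-sided permutation test gave p = 0.333, the smallest value that 2 libraries against 2 allow. Over the genome there were 20768 and 24219 loops with vehicle, against 17222 and 15066 with THZ1, and these too were 1.39-fold apart. The log2 ratio of member loops to all other loops of the same library changed by 0.0035 (exact p = 1). Members with 10 kb anchors numbered only 3 and 7 with vehicle, against 6 and 6 with THZ1, and these counts overlap. Their log2 change in number was 0.26, in place of -0.48 over all members. The log2 ratio of these few loops to the other loops with 10 kb anchors changed by 0.63, with the conditions apart (exact p = 0.333). The contacts behind the member loops summed to 1169 and 1500 with vehicle, against 1090 and 1134 with THZ1, sums that depend on how many loops were called.

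**Figure D1:**
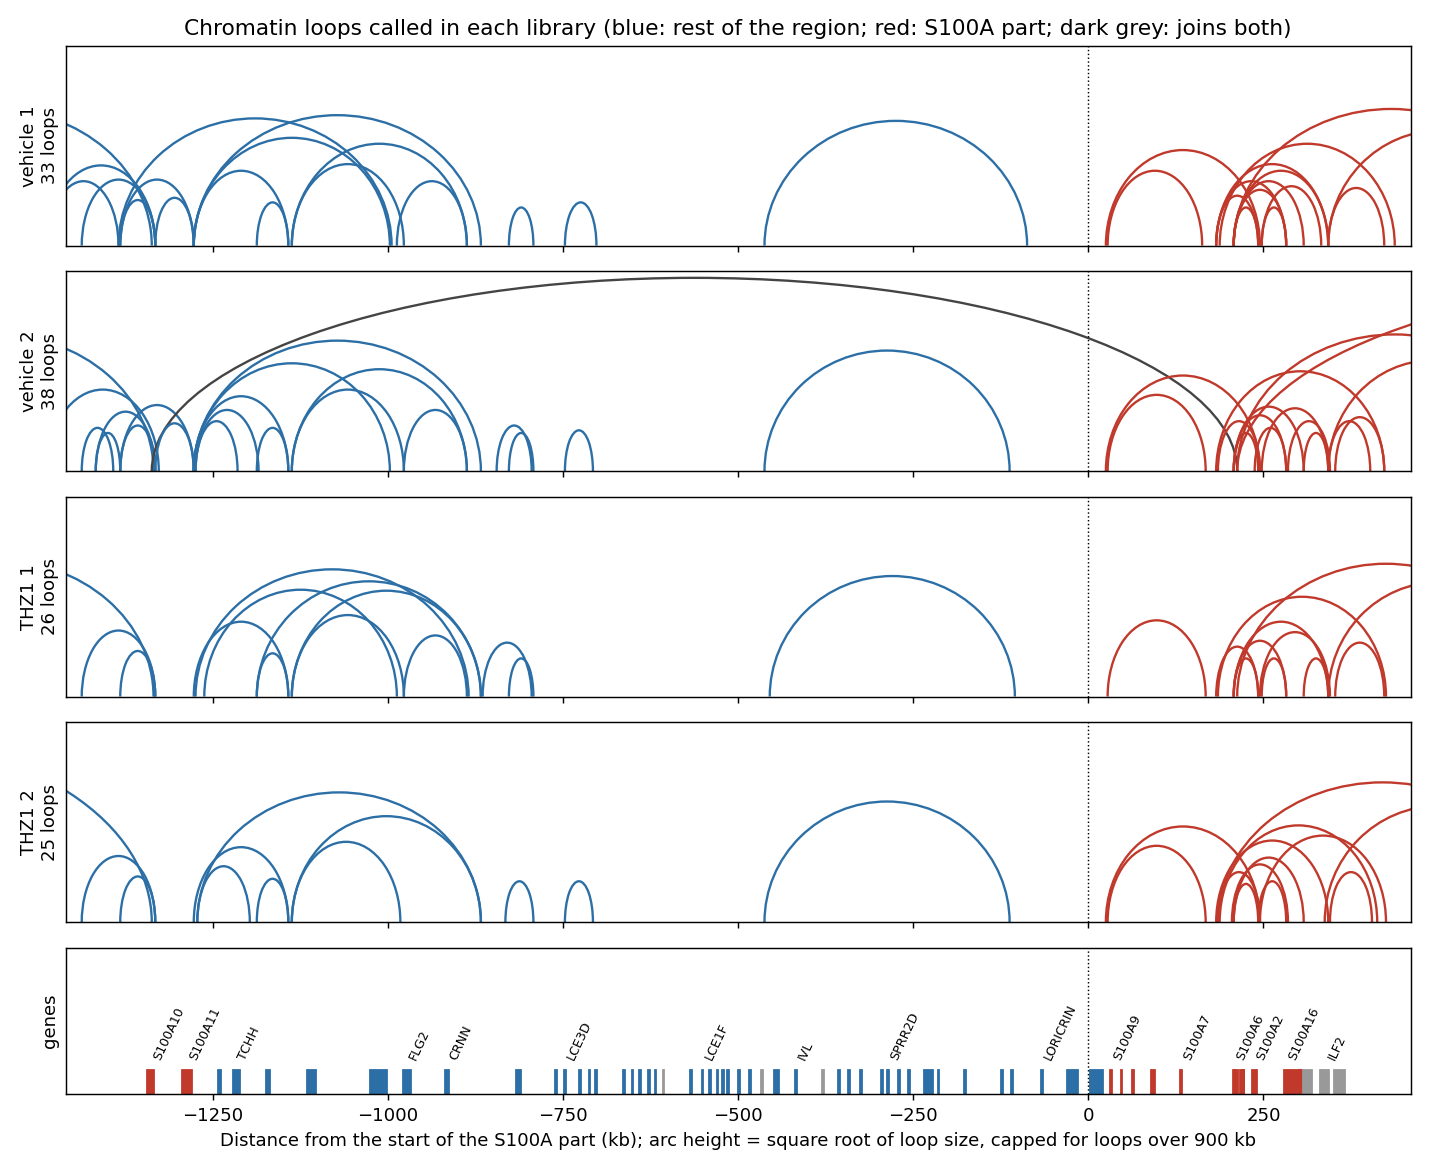
Each arc is a loop called in 1 library, drawn between the midpoints of its anchors along the distance (kb) from the start of the S100A part, which the dotted line marks. Arc height follows the square root of loop size and is capped for the longest loops, arcs that leave the frame have an anchor outside the plotted stretch, and the bottom row shows the protein-coding genes. Loops crowd over S100A10 to CRNN and over the S100A part, with few arcs over the LCE and SPRR genes between them.

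Loops were spread unevenly over the gene families, and in the same way in all 4 libraries. The stretch from S100A10 to CRNN, 487 kb with 9 protein-coding genes, had 15 and 18 loops with vehicle, against 11 and 9 with THZ1. The stretch from LCE5A to LORICRIN, 751 kb with 38 genes, had 3 and 4 loops with vehicle, against 3 and 3 with THZ1. In the S100A part, 400 kb with 19 genes, 15 and 17 loops with vehicle, against 12 and 13 with THZ1, had an anchor, a loop that joins it to the rest included. Per megabase, loop anchors in the stretch from LCE5A to LORICRIN numbered from 5.32 to 7.99 over the libraries, against 28.8 to 55.5 from S100A10 to CRNN and 50 to 67.5 in the S100A part.

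The ratio between vehicle and THZ1 in loop number was smaller in the S100A part than in the rest, a difference that 4 libraries cannot bring past a threshold of 0.05 and that depended on which loops were counted. The S100A part had 15 and 16 loops of its own with vehicle, against 12 and 13 with THZ1, means of 15.5 ± 0.707 and 12.5 ± 0.707 (SD, n = 2 each), 1.24-fold apart. The rest had 18 and 21 with vehicle, against 14 and 12 with THZ1, means of 19.5 ± 2.12 and 13 ± 1.41 (SD, n = 2 each), 1.5-fold apart. In neither part did the conditions overlap, and each had an exact p of 0.333. The log2 ratio of loops in the S100A part to loops in the rest was -0.26 and -0.39 with vehicle, against -0.22 and 0.12 with THZ1. The difference of 0.27 had an exact p of 0.333, and it turned to -0.23 when only loops with 5 kb anchors were counted and to -0.42 when only loops with all 4 deposited FDR values at or below 0.01 were counted. It was 0.44 without THZ1 1, 0.11 without THZ1 2 and 0.060 for loops with both anchors in the window. A single loop joined both parts. It was called in vehicle 2 between S100A10 and the anchor shared by S100A6, S100A5, S100A4 and S100A3 (chr1:151950001-153525000), and with a size of 1550 kb and 23 contacts it was also the largest member.

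**Figure D2:**
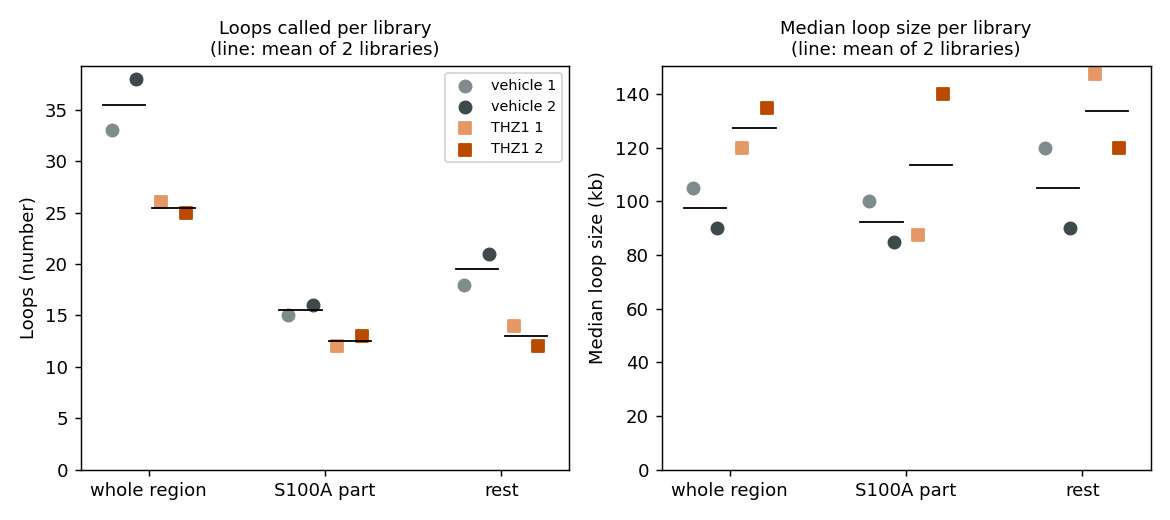
The left panel shows the number of loops and the right panel the median loop size (kb) in each library, for the whole region, the S100A part and the rest; circles are vehicle libraries, squares THZ1 libraries and lines the mean of 2 libraries. Loop numbers separate by condition in all 3 sets, with 33 and 38 against 26 and 25 in the whole region, while median sizes separate only in the whole region.

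S100A10 and S100A11, the annexin-binding S100A genes that lie apart from the others, met fewer loops in each THZ1 library than in each vehicle library. S100A10 (chr1:151955391-151966335) met 5 and 5 loops with vehicle, against 3 and 3 with THZ1. S100A11 (chr1:152004982-152020383) met 5 and 7 with vehicle, against 2 and 1 with THZ1. The anchor at the start of S100A11 overlaps the gene by only a short stretch, and loops of the THZ1 libraries used the neighboring bin as well, so that counting anchors within 5 kb of the gene, a choice made after the values were seen, gave 5 and 7 with vehicle, against 3 and 3 with THZ1. Loops that met either gene numbered 9 and 11 with vehicle, against 5 and 4 with THZ1. Both THZ1 libraries had fewer loops than both vehicle libraries for 6 of the 21 genes of the window that met a loop (28.6%), and none had more in both THZ1 libraries. Without vehicle 1 the number was 10, but leaving out a library loosens the rule, so the number could only stay or rise. The share over the genome was not computed under that looser rule. With all 4 libraries, 24.3% of 14386 genes with a loop over the genome had fewer in both THZ1 libraries. The region's share of 28.6% was near this background.

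The loops that both vehicle libraries shared and both THZ1 lists lacked all had S100A10 or S100A11, or the DNA right beside S100A10, at an anchor, apart from 1 of the S100A part. There were 3 such loops in the list of vehicle 1 (9.09% of its members) and 4 in that of vehicle 2 (10.5%), below the 16.4% and 14.2% of all loops of these lists that were vehicle-only in this sense. Leaving out any 1 library gave from 6 to 9, but this drops a requirement, so that within a list the number could only stay or rise. The share over the genome was not computed under that looser rule. The first joined S100A10 to S100A11 (chr1:151965001-152025000, 55 kb), with 23 and 31 contacts and an observed over expected value, the contacts divided by those expected from the surrounding donut of the contact map, of 2.15 and 2.61. The second joined the gap between THEM4 and S100A10 to S100A11 (chr1:151915001-152025000, 105 kb), with 23 and 29 contacts and observed over expected values of 3.03 and 3.41. All 4 values lie below the medians over the members of those libraries, 5.14 and 4.73. The third joined C2CD4D, a gene outside the window, to S100A10 or the bin next to it, with 20 and 16 contacts. The additional loop of vehicle 2 joined the anchor shared by S100A6 to S100A3 to the stretch of JTB, RAB13 and RPS27 outside the window (62 contacts at anchors of 25 kb), and a loop of THZ1 1 with the same first anchor ended 25 kb from it. Loops shared by the THZ1 libraries and lacking in both vehicle lists numbered 0 of 26 and 0 of 25. Of all loops in those lists, 4.58% and 5.38% were of this kind. For a count of 0, an approximate upper limit of the share is 3 divided by the number of members, 11.5% and 12%. That limit takes loops as independent, though some share anchors.

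The domain lists differed at the same place. Both THZ1 libraries held a domain of 170 kb over chr1:151840001-152010000, which covers S100A10 and ends within S100A11, with corner scores, Arrowhead's measure of how sharply the corner of a domain stands out, of 1.21 and 1.12. Neither vehicle library held it, and vehicle 1 held instead a domain of 730 kb that ends just past S100A10 (corner score 0.567). Of the domains of the THZ1 libraries, 29.6% and 31.4% over the genome were shared by these 2 libraries alone, and in the region it was 1 of 4 in each. No domain of the region was shared by the vehicle libraries alone, beside 11.5% and 10.1% of their domains over the genome. Loops with an anchor within this domain that reached past its right end numbered 3 and 3 with vehicle, against 0 and 0 with THZ1. Loops wholly within it numbered 2 and 4 with vehicle, against 2 and 2 with THZ1. Both counts were made after the domain had been seen, and in each vehicle library 2 of the 3 loops reaching past the end are vehicle-only loops already given.

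In the S100 fused-type genes the anchors lay mostly between genes, and several of their loops were called in all 4 libraries. Of the 7 genes, FLG2 and TCHH met a loop, and TCHHL1, RPTN, HRNR, FLG and CRNN met none. FLG2 met 2 and 2 loops with vehicle, against 3 and 0 with THZ1, so the THZ1 libraries fell on both sides of vehicle. Within 5 kb of the gene, FLG met 3 and 1 loops with vehicle, against 1 and 0 with THZ1. By the same margin FLG2 met 2 and 2, against 3 and 1. TCHH met 1 loop in vehicle 2, from S100A11. Between RPTN and HRNR, 2 adjoining bins were anchors in every library. The bin chr1:152155001-152160000, without a motif match, was joined to S100A11 and to the gap between TCHH and RPTN. The bin chr1:152160001-152165000 holds the 2 plus-strand CTCF motifs between RPTN and HRNR. It was joined to FLG2 or the DNA beside it, and to the gap between CRNN and LCE5A. The last of these loops ended in the bin chr1:152410001-152415000 with its plus-strand site in both vehicle libraries, and in the bin chr1:152430001-152435000 with its minus-strand site in both THZ1 libraries. The bins are within the 20 kb used to match loops, so this counted as 1 loop, and the shift was noticed after the values had been seen. Other loops of the vehicle libraries ended in the second bin and 1 of THZ1 1 in the first.

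The genes of the cornified envelope proper met few loops. Of the 19 listed LCE and CRCT1 genes 2 met a loop. LCE7A, which was not in the list, also met loops, given below. LCE3D met 1, 1, 0 and 1 in vehicle 1, vehicle 2, THZ1 1 and THZ1 2, and LCE3A met 1 in vehicle 1 alone. None of the 10 SPRR genes, SPRR5, IVL, LORICRIN, KPRP, SMCP and C1orf68 met a loop in any library. Within 5 kb of the gene, SMCP met 1 loop in each library, LCE3A 1, 1, 0 and 1 and LCE3B 0, 1, 0 and 1. Each library held a long loop over all 10 SPRR genes and IVL, from LCE7A or the gap after it to LELP1, PRR9 or the gap before LORICRIN, with 40 and 41 contacts for vehicle, against 23 and 76 for THZ1, at anchors of 25 kb, or 10 kb in THZ1 1. The right anchor in vehicle 1 lay 25 kb from that in vehicle 2 and THZ1 2, so by the 20 kb matching these were not all the same loop. By these loops LCE7A met 1, 1, 0 and 1, the proline-rich gene PRR9 0, 1, 1 and 1 and LELP1 0, 1, 0 and 1. None of these genes shows an order between the conditions.

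The same stretch formed the one domain that all 4 libraries held, of 660 kb from LCE3A to LORICRIN (chr1:152590001-153250000, and moved by 20 kb in vehicle 2). Its corner score was 0.599 and 0.415 with vehicle, against 0.953 and 0.788 with THZ1, so that both THZ1 libraries lay above both vehicle libraries. The means were 0.507 ± 0.130 and 0.871 ± 0.117 (SD, n = 2 each), a difference of 0.363 with an exact p of 0.333, the smallest possible. Of the 406 domains of the genome found in all 4 lists, 47% had both THZ1 scores above both vehicle scores, with a median difference of 0.0478 over all of them.

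**Figure D3:**
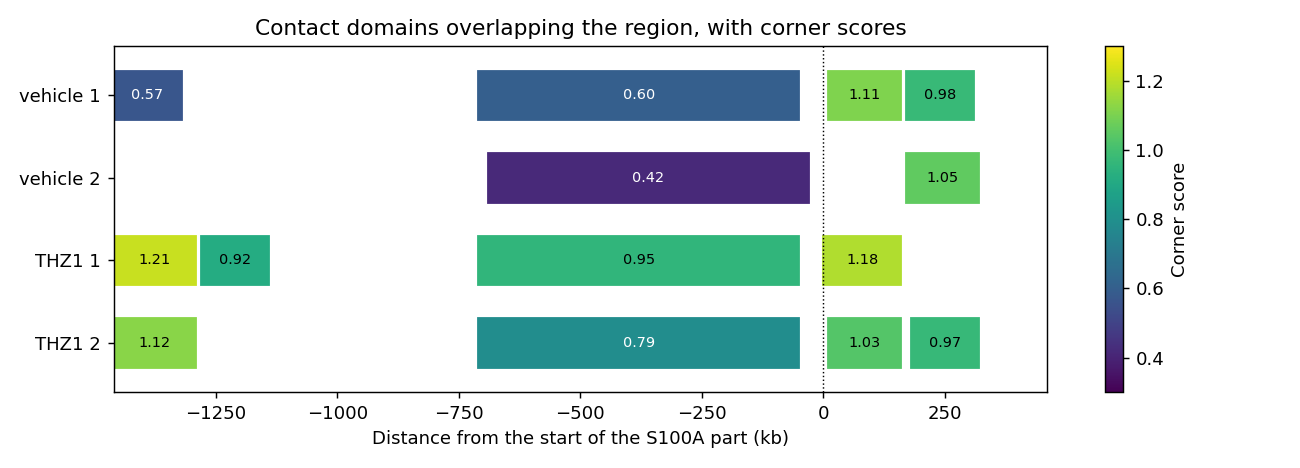
Boxes are the contact domains of each library along the distance (kb) from the start of the S100A part (dotted line), with the corner score written in them and given by color. At the left edge, the box of vehicle 1 goes on beyond the plotted stretch, while those of the THZ1 libraries begin there. The box over the LCE and SPRR genes has scores of 0.60 and 0.42 with vehicle, against 0.95 and 0.79 with THZ1, and the box over S100A10 at the left has counterparts with the same ends in the THZ1 libraries only.

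At the border of the S100A part, the genes of calprotectin and psoriasin lay inside a loop and had no anchor on the gene bodies. S100A9, S100A12, S100A8, S100A7A and S100A7 met no loop in any library. The left anchor of that loop ends just before S100A9, and within 5 kb of the gene S100A9 met 2 and 2 loops with vehicle, against 1 and 2 with THZ1, the other 4 genes still none. PGLYRP3 met none either. PGLYRP4, whose product binds the peptidoglycan of bacteria, met 1, 1, 0 and 1 loops, each of them reaching S100A2. The loop that encloses these 5 genes (chr1:153325001-153465000 in vehicle 1) was called in all 4 libraries with 28 and 34 contacts with vehicle, against 39 and 42 with THZ1, so that both THZ1 libraries had more contacts. Its observed over expected values were 8.70 and 15.1 with vehicle, against 12.8 and 14.9 with THZ1, and these overlapped. In the other libraries its right anchor was the next bin, chr1:153465001-153470000, so the vehicle 1 values were read at another place. At that bin the 15.1 of vehicle 2 lay above both THZ1 values, while its 34 contacts lay below the 39 and 42 of THZ1. A domain over the same genes (chr1:153310001-153460000) had corner scores of 1.11 in vehicle 1, 1.18 in THZ1 1 and 1.03 in THZ1 2 and was not called in vehicle 2.

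The distal S100A genes were joined to each other and to ILF2, which encodes an RNA-binding protein. Of these 9 genes 7 met a loop and S100A13 and S100A1 did not, though within 5 kb S100A13 met 1 and 3 with vehicle, against 1 and 2 with THZ1, and S100A1 met 1 and 2, against 1 and 1. S100A6 and S100A5 share an anchor (chr1:153505001-153510000) and met 5 and 6 loops with vehicle, against 4 and 3 with THZ1. S100A16 met 3 and 3 with vehicle, against 2 and 2 with THZ1, and ILF2 5 and 5 with vehicle, against 4 and 3 with THZ1. In these genes both THZ1 libraries lay below both vehicle libraries. S100A2, by contrast, met 3 and 4 loops with vehicle, against 3 and 5 with THZ1. S100A4 and S100A3 met 0 and 3 with vehicle, against 1 and 0 with THZ1, all through 25 kb anchors that they share with S100A6 and S100A5. S100A14 met 0 and 1 with vehicle, against 0 and 1 with THZ1. With anchors within 5 kb of a gene it met 3 and 3, against 2 and 2, and joined the 6 genes with fewer loops in both THZ1 libraries, to make 7, while S100A2 met 5 and 5, against 4 and 5. The neighbors CHTOP (1 and 2 with vehicle, 1 and 1 with THZ1), SNAPIN (1 and 0, 0 and 1) and NPR1 (0 and 1, 1 and 0), which encodes a natriuretic peptide receptor, met few loops in any library.

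**Figure D4:**
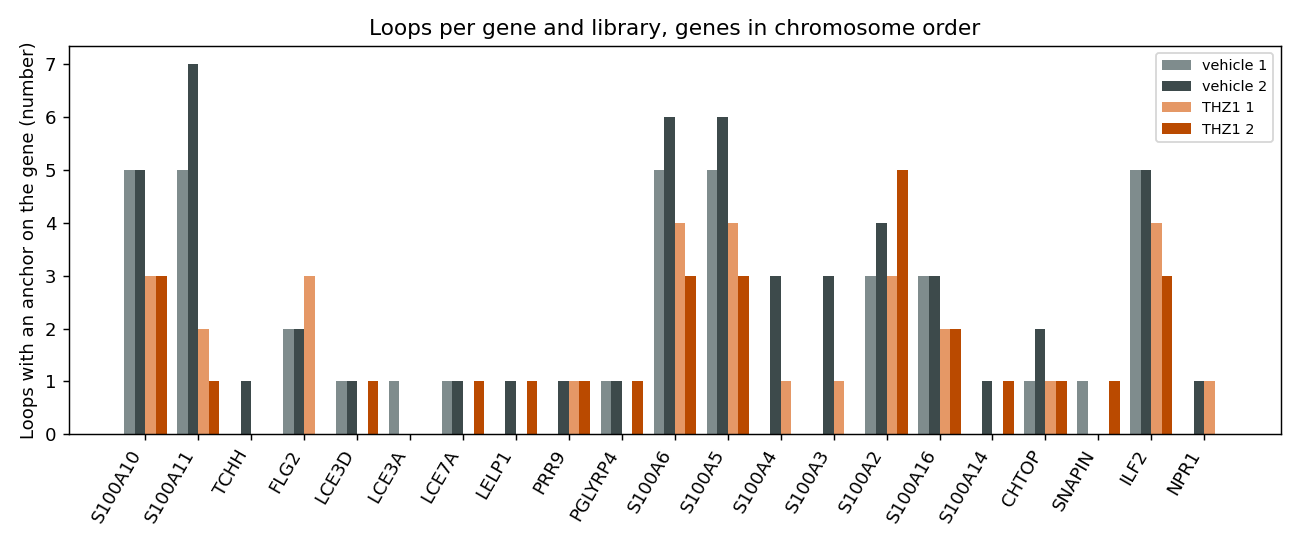
Bars give the number of loops with an anchor on the gene body in each library, for the 21 genes of the window that met a loop, in chromosome order. S100A10, S100A11, S100A6, S100A5, S100A16 and ILF2 have fewer loops in both THZ1 libraries than in both vehicle libraries.

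Loops within the distal group were found in all 4 libraries, and the one with the most contacts at 5 kb anchors joined S100A6 and S100A5 to S100A2 (chr1:153505001-153545000, 35 kb). It had 97 and 139 contacts with vehicle, against 105 and 77 with THZ1, which overlap, and observed over expected values of 7.57 and 9.47 with vehicle, against 6.85 and 4.58 with THZ1, which do not. In edgeR's quasi-likelihood test with the expected contacts as offset, its log2 change was -0.59 with an SE of 0.19 and an adjusted p of 0.0252, weaker with THZ1 in both libraries. The call was lost when any single library was left out, which leaves 1 library in a condition. Calls over the whole genome fell in these settings as well, so the loss is not particular to this loop. Its log2 change was then -0.74 without vehicle 1, -0.42 without vehicle 2, -0.90 without THZ1 1 and -0.32 without THZ1 2. On TMM-normalized counts without the expected contacts it was -0.36. Its second anchor holds the minus-strand CTCF motif before S100A2, and no motif match was found in its first. The loop from S100A6 and S100A5 to S100A16 (chr1:153505001-153585000) had observed over expected values of 5.03, 4.46 and 4.07 in vehicle 1, vehicle 2 and THZ1 1 at 5 kb anchors and 2.60 in THZ1 2 at 10 kb anchors. A domain from S100A6 to S100A1 (chr1:153470001-153610000) had corner scores of 0.976 in vehicle 1, 1.05 in vehicle 2 and 0.968 in THZ1 2 and was not called in THZ1 1.

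Across the region, most loops that all libraries held had lower observed over expected values with THZ1, as most loops of the genome did. Over the genome 2619 loops with identical anchors in all 4 lists were tested, and 720 (27.5%) were called weaker and 1 stronger by edgeR at an adjusted p of 0.05. Without the expected contacts, on counts normalized by TMM, 115 were called weaker and 74 stronger, and the median log2 change moved from -0.41 to -0.005, with none of the members called. Among them were 4 members, of which the S100A6 to S100A2 loop was the only one called. The loop from S100A11 to the gap between RPTN and HRNR (chr1:152020001-152160000) had observed over expected values of 10.8 and 9.75 with vehicle, against 7.32 and 6.64 with THZ1, a log2 change of -0.55 (edgeR adjusted p = 0.0626). The loop between the gaps on both sides of RPTN (chr1:152110001-152160000) had 9.59 and 9.40 with vehicle, against 7.11 and 7.40 with THZ1, a log2 change of -0.39 (edgeR adjusted p = 0.0888). The loop from the gap before S100A10 to S100A10 (chr1:151915001-151970000) had 4.76 and 5.39 with vehicle, against 4.47 and 4.17 with THZ1, a log2 change of -0.24 with an SE of 0.16 (edgeR adjusted p = 0.277). For all 4 the THZ1 libraries lay below both vehicle libraries. This order was not counted over the 2619 loops, but 60.3% of 5048 loops of the same anchor width matched within 20 kb had it. The median log2 change of the 4 members was -0.47, beside -0.41 over all 2619 loops. On TMM-normalized counts it was -0.20, with all 4 still below 0.

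When loops of the same anchor width were matched within 20 kb, 10 members were among 5048 loops, of which 11.6% were called weaker in edgeR. None of the 10 was called, and 6 had an unadjusted p below 0.05. In 9 of the 10 both THZ1 libraries lay below both vehicle libraries, which was so for 60.3% of the 5048 loops. Their log2 changes ran from -0.63 for the short loop between the CRNN-LCE5A and CRCT1-LCE3E gaps (observed over expected 6.68 and 7.63 with vehicle, 4.59 and 4.68 with THZ1) to 0.28 for the loop enclosing S100A9 to S100A7, with an SE of 0.26 and an adjusted p of 0.475. The median was -0.43 over the 10 and -0.37 over all 5048. In the 7 loops of the rest the changes ran from -0.63 to -0.24, and in the 3 of the S100A part they were -0.59, -0.48 and 0.28. Whether the loop over S100A9 to S100A7 differs from the others was not tested. In vehicle 1 its right anchor lay in the 5 kb bin before that of the other libraries, so its change of 0.28 compares different bins. Other matched loops can differ in this way by up to 20 kb.

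**Figure D5:**
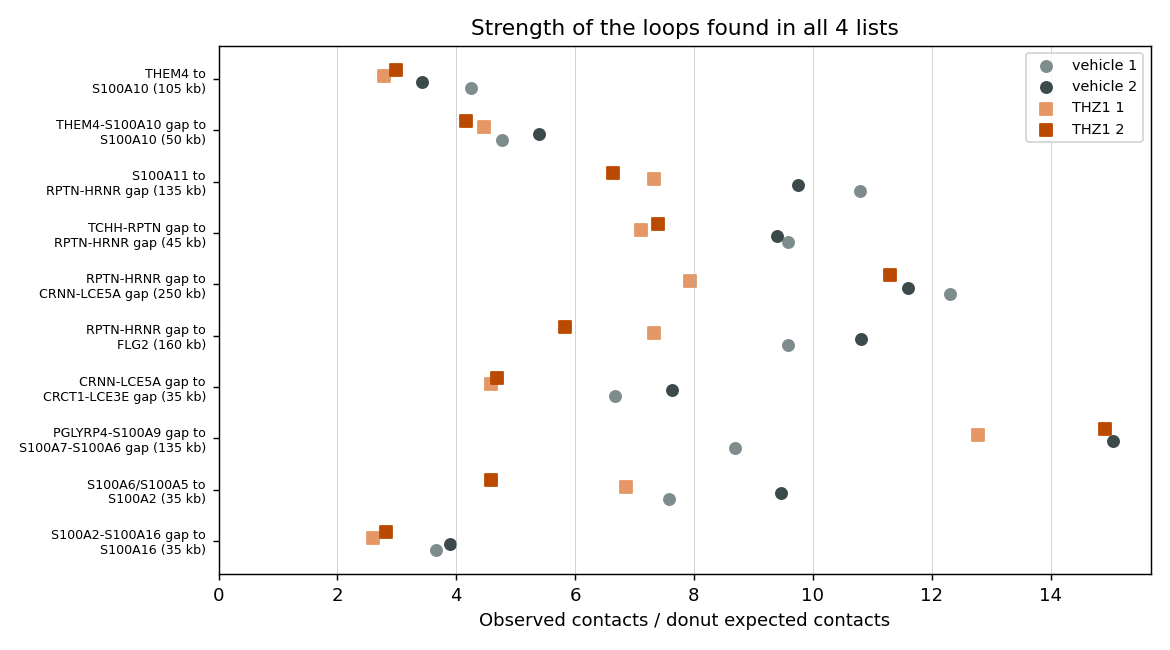
Points give the observed contacts divided by those expected from the donut neighborhood for the 10 member loops of 1 anchor width matched in all 4 lists, named by the genes or gaps at their anchors with their size in vehicle 1; circles are vehicle and squares THZ1 libraries. In 9 loops both squares lie left of both circles, and in the loop from the PGLYRP4-S100A9 gap to the S100A7-S100A6 gap they overlap, at 8.70 and 15.1 against 12.8 and 14.9. The value of 8.70, of vehicle 1, was read with the right anchor in the 5 kb bin before that of the other libraries.

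Loop sizes in the region gave no settled order. Short loops, taken as those of 90 kb or less, made up 33.3% (95% Wilson interval 19.8 to 50.4%) and 52.6% (37.3 to 67.5%) with vehicle and 42.3% (25.5 to 61.1%) and 40.0% (23.4 to 59.3%) with THZ1. The vehicle libraries lay on both sides of the THZ1 libraries, and the difference of -1.83 percentage points between the means of 43.0% ± 13.6 and 41.2% ± 1.63 (SD, n = 2 each) had an exact p of 1. Without vehicle 2 it was 7.82. Over all loops of the genome the shares were 37.3% and 36.8% with vehicle, against 26.2% and 25.5% with THZ1. The share in the region less that in all loops was -3.94 and 15.8 percentage points with vehicle, against 16.1 and 14.5 with THZ1, which overlap (exact p = 0.667, a comparison chosen after the values were seen). The median loop of the region measured 105 and 90 kb with vehicle and 120 and 135 kb with THZ1, 1.31-fold apart with an exact p of 0.333, and the shortest 35 kb in every library. Over all loops of the genome the medians rose as well, from 140 and 140 kb with vehicle to 200 and 200 kb with THZ1. With 5 kb anchors only, the log2 difference of the region's medians was -0.039 in place of 0.39.

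Domains of the region numbered 4 and 2 with vehicle, against 4 and 4 with THZ1 (exact p = 1), while all domains of the genome numbered 1198 and 1398 for vehicle and 2477 and 2345 for THZ1. They covered 57.2% and 45% of the window with vehicle, against 59.4% and 58.9% with THZ1. The median domain measured 405 and 405 kb with vehicle and 165 and 160 kb with THZ1, 2.49-fold apart, with an exact p of 0.333 and medians over at most 4 domains. A domain from the start of S100A11 to RPTN (chr1:152020001-152160000, corner score 0.916) was held by THZ1 1 alone. It had the same ends as the loop between these places that all 4 libraries held.

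The keratin genes, which are also expressed in skin and clustered, gave no single pattern to set beside this. In the keratin cluster of chromosome 12 the lists held 12 and 15 loops with vehicle, against 13 and 12 with THZ1 (log2 change -0.11), and in that of chromosome 17 22 and 24 with vehicle, against 15 and 13 with THZ1 (log2 change -0.72). The region's own log2 change of -0.48 lay between them and differed from the first by -0.37 and from the second by 0.24 (exact p = 0.333 for each).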

How the data were processed

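According to the submitters' processing notes, reads were taken through Juicer 1.6 on hg19 by the authors, and the headers of the lists name juicer_tools 1.19.02. In the deposited loop lists, observed values are raw counts of contacts, expected values are a signal on the same scale from 4 local neighborhoods, and the FDR values are q-values (at most 0.0997). In the deposited domain lists, each domain carries a score for the sharpness of its corner, from Arrowhead. The authors' tables of loops unique to a condition were not used. Read totals per library were not given in the sources used here, and intervals cover counting error only.

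The analysis used Python 3.11.15 with pandas 2.3.3, numpy 2.4.6, scipy 1.17.1 and, for the figures, matplotlib 3.10.9. A loop met a gene where an anchor of 5, 10 or 25 kb overlapped its body (GENCODE 44 lifted to GRCh37). Loop size was the distance between anchor starts. Loops and domains were matched within 20 kb. Values per library were tested by exact permutation, two-sided, over all 6 splits. Strength was tested by the quasi-likelihood test of edgeR 4.0.16 (R 4.3.3), with the log donut expectation as offset and Benjamini-Hochberg adjustment at 0.05 over all loops tested, and with DESeq2 1.42.0 as an alternative. The test was run on simulated data, where it missed many of the smaller changes.

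Named were each listed gene that met a loop, loops with identical anchors in all 4 lists, loops of 1 condition, loops joining both parts, the largest and smallest loops, the domains of the S100A part and those of 1 condition. The members and lists were chosen with earlier results of these data known. Listed but not found in the window under these names were LOR (annotated as LORICRIN), SPRR2C, S100A7L2 and 6 neighbors. CTCF sites were read from the GRCh37 sequence.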

Additional observations from a re-analysis of the deposited data

How the results depend on the processing

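With 2 libraries a condition, no exact test could pass 0.05, so directions are compared here. Over the alternatives for comparisons, 15 turned a sign and 13 moved a count by over 1.5 times. Among the latter, counts of vehicle-only loops and of genes without single libraries could move only upward within a list. Where values changed, the cause was not tested. The log2 change in loop number turned to 0.26 with 10 kb anchors only, from 3 to 7 loops per library. The difference in the share of small loops turned to 2.22 percentage points with both anchors in the window, 2.18 with 5 kb anchors, 1.55 with all FDR values at or below 0.01, 1.29 with a limit of 50 kb and 9.33 after the genome's share was subtracted, and ranged from -11.5 to 7.82 without single libraries. The log2 difference in loop size turned to -0.037 with both anchors in the window, -0.039 with 5 kb anchors and -0.087 at the stricter FDR. That between the S100A part and the rest ranged from 0.11 to 0.44 without single libraries, was 0.060 with both anchors in the window, turned to -0.23 with 5 kb anchors and -0.42 at the stricter FDR, and could not be computed with 10 kb anchors because 1 library had no such loop in the rest. That between the region and the genome, 0.0035 over all anchor widths, was 0.63 with 10 kb anchors, turned to -0.096 at the stricter FDR and ranged from -0.065 to 0.072 without single libraries.

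Vehicle-only loops in the list of vehicle 1 (or of vehicle 2 where that was left out) numbered 7 in place of 3 when matched within 10 kb and from 6 to 9 without single libraries. Genes with fewer loops in both THZ1 libraries numbered from 7 to 10 without single libraries, 10 without vehicle 1. For both counts, leaving out a library drops a requirement, so these rises do not measure how stable the counts are. Members called in strength fell from 1 to 0 with counts normalized by TMM without the expectation, with DESeq2, with matching within 20 kb, and without any single library (0 to 0). Whether the replicate numbers pair the libraries is not known from the labels. Deviations of the same number in observed over expected values correlated at 0.0175 over 2619 loops. These values are ratios to the expected contacts of the same library, so the correlation cannot decide it. With the replicate number as a block, the log2 change in loop number was -0.47 (exact p = 0.5), that in domain number 0.5 (0 without vehicle 2 and no block), and 1 member was called in strength, with 769 loops called weaker over the genome in place of 720. That genome-wide number was 227 without vehicle 1 and 0 without any other single library, 115 with TMM, 17 with DESeq2 (842 loops with an adjusted p) and 588 of 5048 matched loops. Sums of contacts at called loops, with medians of 30.5 to 35 contacts per member, limit what can be seen of a single loop.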
